A study of Mus musculus with 4 samples.

Results

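Ribosomal protein genes were taken as the genes of the array annotation whose symbol is *Rpl* or *Rps* followed by a number and its usual suffixes, together with *Rplp0*, *Rplp1*, *Rplp2* and *Rpsa*. Only probe sets annotated to exactly 1 gene were used, and 69 of the 16380 genes measured in this way met the rule, with 438 probe sets among them and a median of 6 probe sets per gene. They comprised 37 usual proteins of the large subunit, 26 of the small subunit, and 6 paralogs or like genes (*Rpl22l1*, *Rpl39l*, *Rpl3l*, *Rpl7l1*, *Rps27l* and *Rps4y2*). The symbol *Rps4y2* is that of the array, and RefSeq now lists the gene as *Rps4l*, a transcribed pseudogene. Of 77 usual ribosomal protein genes, 63 were members, and the other 14 were not analysed here as genes, because the rule found no probe set of theirs alone.

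Each ribosome is built from a large subunit, which joins amino acids, and a small subunit, which reads the mRNA, and each usual protein of a subunit is present in a single copy apart from the stalk proteins. Ribosomal protein genes are transcribed at high levels in growing cells, and their mRNAs carry a 5′ terminal oligopyrimidine (TOP) tract through which mTOR signaling sets their translation. Assembly takes place mostly in the nucleolus around rRNA made by RNA polymerase I, and Myc is a known activator of all of these steps. A few genes have paralogs that are used in particular tissues, such as *Rpl3l* in striated muscle and *Rpl39l* in male germ cells of the mouse.

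Total RNA was measured in 4 groups of mouse embryoid bodies (EBs), aggregates in which embryonic stem (ES) cells differentiate: *Mst-/-* EBs at day 8, wild type EBs at day 8, *Mst-/-* EBs at day 4 and wild type EBs at day 4, with 1 Affymetrix mouse exon array for each. *Mst-/-* cells lack *Mst1* (*Stk4*) and *Mst2* (*Stk3*), the kinases of the Hippo pathway, through loss of kinase domain exons; the cells were derived from blastocysts of C57BL/6 matings in which the parents already lacked *Mst2*. The methods name no strain for the wild type cells, they selected more than 1 *Mst-/-* line, and which of them was hybridized is not stated, so genotype, line and genetic background cannot be told apart. All EBs floated in ES cell medium without LIF and without the inhibitors CHIR99021 and PD0325901. A description label of the day 8 *Mst-/-* array reads day 4, whereas its title and cell type label read day 8, and it was used as day 8. Because each group is 1 array, no comparison has a replicate check and no p-value is given; the SD over the probe sets of a gene is a technical spread within the same arrays.

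The labels were checked before the members were compared. Of 13 probe sets of *Stk4*, 2 read between 3.83 and 4.80 on the *Mst-/-* arrays, against 11.42 to 12.03 on the wild type arrays, while the remaining 11 differed by -0.30 to 0.39. At day 8 the *Mst-/-* EBs had all 6 markers of pluripotent cells over 1.5-fold higher (median difference 1.91), whereas 5 of 5 erythroid, 4 of 4 stromal and 3 of 3 cardiac markers were over 1.5-fold lower (medians -2.42, -2.68 and -1.21). The pluripotency markers read 8.24 to 12.25 in *Mst-/-* EBs and 7.47 to 10.83 in wild type EBs at day 8. On those arrays the 4 stromal markers reached at most 10.05 in *Mst-/-* EBs and at least 11.47 in wild type EBs. Of 3 macrophage markers, *Ptprc* was below background on all 4 arrays. The other 2 were above background and differed by -0.745 and 0.44 at day 8, with 1 over 1.5-fold lower in *Mst-/-* EBs. The 3 measured proliferation markers differed by -0.14 to 0.11 at day 8. For the day labels, the day 8 *Mst-/-* array was set against the day 4 one. It was over 1.5-fold higher in 4 of 4 visceral endoderm, 3 of 3 cardiac and 4 of 4 stromal markers (medians 4.01, 3.48 and 1.58). In 4 of 4 primitive streak markers it was over 1.5-fold lower (median -1.26). All of these markers had the same calls over time in wild type EBs. In bulk RNA a change in the share of a cell type and a change of RNA per cell cannot be told apart, and the part of the cell mixture in the differences below was not tested.

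Some promoter sequence features, which the choice of members did not use, were more frequent among members than among all genes. RefSeq start sites (GRCm38.p6) were available for 55 members. A pyrimidine run, here a C followed by 5 or more C or T on the sense strand within 25 bases before and 25 bases after the start, was present in 37 of 55 members (67.3%), against 38.5% of the 27025 genes of the table. CTTCCGG or its complement CCGGAAG, the core that ETS family factors recognize, lay within the 300 bases around the start of 23 of 55 members (41.8%), against 9.93% of all genes, and the median number of CG dinucleotides was 22 for members and 8 for all genes. The 27025 genes were not matched to the members for expression or number of CG dinucleotides. RefSeq starts can lie some bases away from the start used in these cells, so the windows describe sequence and locate no site. The windows shown are a selection, and other members that moved as far are not shown. The following windows of 50 bases, 5′ to 3′ with each run in capitals, belong to some members with large differences in a comparison below and to *Rpl39*, the usual partner of *Rpl39l*:
*Rpl27a* (chr7:109519170-109519219, plus strand): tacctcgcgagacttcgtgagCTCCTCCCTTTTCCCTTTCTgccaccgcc
*Rps12* (chr10:23787185-23787234, minus strand): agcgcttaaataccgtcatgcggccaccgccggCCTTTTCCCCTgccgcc
*Rpsa* (chr9:120127741-120127790, plus strand): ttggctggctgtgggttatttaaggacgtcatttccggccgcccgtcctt
*Rpl22l1* (chr3:28805483-28805532, plus strand): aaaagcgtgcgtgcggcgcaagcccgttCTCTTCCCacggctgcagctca
*Rps25* (chr9:44407689-44407738, plus strand): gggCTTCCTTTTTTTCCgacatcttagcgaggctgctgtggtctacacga
*Rps27l* (chr9:66946061-66946110, plus strand): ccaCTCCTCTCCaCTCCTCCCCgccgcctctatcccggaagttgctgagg
*Rpl39l* (chr16:10170203-10170252, plus strand): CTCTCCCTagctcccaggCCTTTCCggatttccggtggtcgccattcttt
*Rpl39* (chrX:37085198-37085247, minus strand): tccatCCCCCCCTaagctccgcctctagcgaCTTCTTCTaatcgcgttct
*Rpl27a* had an unbroken run of 20 pyrimidines beginning just before its annotated start, while the window of *Rpsa* held none under this definition. A further annotated start of *Rps27l*, not shown, had a window without a run. The pair *Rpl39l* and *Rpl39* both held runs, although their signals behaved differently on these arrays.

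Signals are log2 values per probe set as deposited, and a gene was given, array by array, the median of its probe sets. Background was the level under which 95% of 1007 genes for odorant and pheromone receptors lay, which are silent in most tissues. It was 6.92 on the *Mst-/-* and 7.03 on the wild type array of day 8, and 6.96 and 7.04 on those of day 4. On all 4 arrays 67 of the 69 members were above background, the exceptions being *Rpl39l* and *Rpl3l*. The 63 usual members read between 7.28 (*Rpl31*, wild type day 8) and 14.34 (*Rps6*, wild type day 8), and these levels do not rank the genes, because probe sets differ in brightness for the same RNA. A gene was compared where at least 1 of the 2 arrays was above background, and a difference of 1.5-fold, the threshold of the methods, equals 0.585 on the log2 scale.

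At day 8, most ribosomal protein genes had slightly higher signals in *Mst-/-* EBs, compared with those of wild type EBs. Of 67 members compared, 61 had a difference above 0 and 5 under 0, whereas 55.6% and 43.5% of all 12175 genes compared lay above and under 0. The median difference was 0.17 (1.13-fold; middle 50% of members 0.07 to 0.31), against 0.05 over all genes. It was 0.16 for the large subunit (34 of 37 above 0) and 0.21 for the small subunit (23 of 26 above 0). No member passed 1.5-fold in either direction, although 8.41% of all genes were over 1.5-fold higher and 8.21% over 1.5-fold lower. The members therefore moved by little and mostly in a single direction, while genes at large moved further and both ways. This contrast was not matched for signal, with which the size of the members' differences varied, as given below. Among the 438 probe sets of the members, 365 read higher in *Mst-/-* EBs and 63 lower, and 43 of the 55 members with at least 3 probe sets had 75% or more of them higher, against 2 with 75% or more lower.

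The members with the largest day 8 differences were all within 1.5-fold. *Rpl13*, a large subunit protein, read 10.26 in *Mst-/-* and 9.68 in wild type EBs at day 8, and 10.51 and 10.23 at day 4, a day 8 difference of 0.58 ± 0.15 (SD over 3 probe sets). *Rps25*, a small subunit protein, read 11.51 and 11.03 at day 8, and 11.39 and 11.45 at day 4, in the same order of genotypes (0.48 ± 0.32, 11 probe sets). *Rps7*, which in human is one of the genes mutated in Diamond-Blackfan anemia, read 12.07 and 11.63 at day 8, and 12.16 and 12.11 at day 4 (0.44 ± 0.13, 3 probe sets). In *Rps25* and *Rps7* the wild type day 8 array was the low one of the 4, and the other arrays lay within 0.12 of each other. *Rps21* and *Rps13*, chosen after their values were seen, had day 8 differences of 0.56 and 0.57 from 2 probe sets and 1 probe set. In the other direction, *Rpl39* and *Rps6*, the small subunit protein that S6 kinase phosphorylates, were the members with 75% or more of their probe sets lower, and each was lower by 0.05; *Rps6* read 14.29, 14.34, 14.31 and 14.26 in *Mst-/-* day 8, wild type day 8, *Mst-/-* day 4 and wild type day 4 EBs.

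At day 4 the genotypes could hardly be told apart by the gene medians of the usual members. Of 68 members compared, 35 lay above 0 and 30 under 0, against 51.3% and 47.7% of 11949 genes, and the median was 0.01, against 0.02 over all genes. The medians were 0.00 for the large and 0.01 for the small subunit. The probe sets were as evenly divided, with 212 of 438 higher and 218 lower. Of those with mean signals of 7 to 9, 75.7% were higher, against 50.4% of other probe sets in that range. Among those at 13 to 15 the shares were 33.5% and 33.9%. Past 1.5-fold, 2 members were higher (*Rpl39l* and *Rps4y2*, both paralogs) and 0 were lower, where 10.3% and 8.52% of all genes were higher and lower. Of the usual members, *Rpl13* was the highest with 3 or more probe sets (0.28 ± 0.17), and *Rpl13a* (-0.22 ± 0.31, 11 probe sets) and *Rpl10a* (-0.21 ± 0.14, 11 probe sets), both large subunit proteins, were the lowest with 75% or more of their probe sets lower, followed by *Rps10* (-0.13 ± 0.23, 10 probe sets). The paralog *Rpl22l1* was at -0.13 ± 0.41 (6 probe sets). The genotype difference was larger at day 8 than at day 4 in 59 of 67 members (median change 0.21), compared with 55.5% of all genes (median change 0.05), and this change was not tested.

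**Figure D1:**
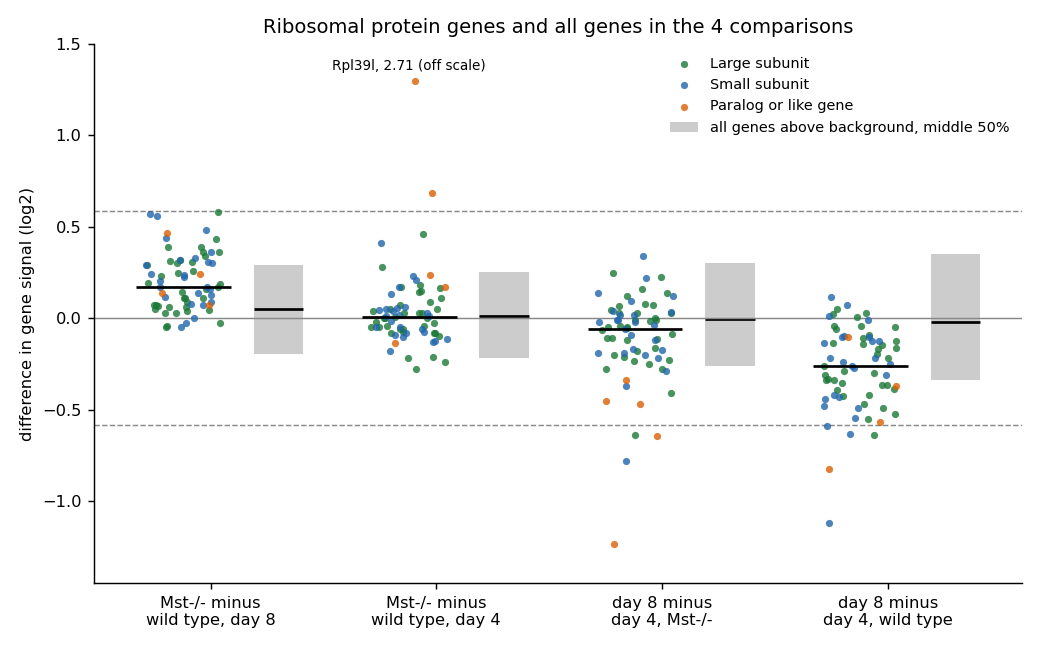
Differences in gene signal (log2, vertical axis) of the ribosomal protein genes above background in the 4 comparisons. Points are genes coloured by group, black lines are medians, grey bars hold the middle 50% of all genes above background and dashed lines mark 1.5-fold. The members sit mostly above 0 in *Mst-/-* minus wild type EBs at day 8 (median 0.17), around 0 at day 4, slightly under 0 in *Mst-/-* EBs over time and well under 0 in wild type EBs over time (median -0.26); *Rpl39l* at 2.71 is drawn at the edge.

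Over time, wild type EBs carried most of the change. Their day 8 array is also the one subtracted in the day 8 genotype comparison, so these comparisons are not independent. At day 8 compared with day 4, 60 of 67 members lay under 0 and 7 above 0 in wild type EBs, against 51.3% and 48.0% of 12092 genes, and the median was -0.26 (-0.02 over all genes). The large and small subunits had medians of -0.26 and -0.24. Past 1.5-fold, 5 members were lower and 0 higher, a lower share than the 12.7% of all genes that were lower and the 16.7% that were higher. Probe sets again pointed one way, with 376 of 438 lower and 54 higher, and 46 of 55 members with 3 or more probe sets had 75% or more of them lower. The medians of the day 8 and day 4 wild type arrays over all probe sets were 8.71 and 8.59, a shift opposite in sign to that of the members, and centering each array on its median left the members at -0.38 with 13 lower.

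The wild type members past 1.5-fold were *Rpl22l1*, *Rpl27a*, *Rps12*, *Rpsa* and, from 1 probe set, *Rps13*. *Rpl27a*, a large subunit protein, read 11.61 in wild type EBs at day 8 and 12.25 at day 4 (-0.64 ± 0.13, 3 probe sets), and 11.93 and 12.34 in *Mst-/-* EBs. *Rps12*, a small subunit protein, read 12.14 and 12.77 in wild type EBs at day 8 and day 4 (-0.64 ± 0.29, 6 probe sets), and 12.46 and 12.83 in *Mst-/-* EBs. *Rpsa*, a small subunit protein also known as the laminin receptor, read 11.98 and 12.57 in wild type EBs (-0.59 ± 0.29, 17 probe sets), and 12.31 and 12.48 in *Mst-/-* EBs. In all 3 genes the day 8 *Mst-/-* array stood between the wild type day 8 array and the day 4 arrays. The call of *Rpsa*, close to the limit of 0.585, was lost with quantile normalization, with the mean over probe sets, with the brightest probe set and with the median of the probe set differences, and those of *Rpl27a* and *Rps12* were lost with the brightest probe set, that of *Rpl27a* also with the mean. *Rps6* was the highest member with 75% or more of its probe sets higher over time in wild type EBs (0.07 ± 0.05), and *Rps10* had the largest value above 0 of any member (0.12 ± 0.20).

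In *Mst-/-* EBs the members lay nearer to 0 over time. Of 68 compared, 46 were under 0 and 21 above 0, against 50.2% and 49.2% of 12147 genes, with a median of -0.06 (-0.005 over all genes), -0.05 for the large and -0.03 for the small subunit. Past 1.5-fold, 4 members were lower, namely *Rpl39l* and *Rps4y2* and, from 1 probe set each, *Rpl21* and *Rps13*, and 0 were higher, where 7.48% of all genes were lower and 13.3% higher. *Rps28* read 13.13 and 12.79 in *Mst-/-* EBs at day 8 and day 4, and 12.93 and 12.92 in wild type EBs (0.34 ± 0.34 in *Mst-/-* EBs, 6 probe sets), the highest value of the members compared. Of the other members with 3 or more probe sets and 75% or more of them higher, *Rpl17*, *Rps10* and *Rps15* had the largest values, at 0.25 ± 0.25, 0.22 ± 0.28 and 0.14 ± 0.20, each within its spread. Across the 63 usual members the change over time in *Mst-/-* EBs and that in wild type EBs, which share no array, had a Pearson r of 0.74 and a Spearman rho of 0.70, against 0.63 and 0.59 over 11644 other genes. For the 51 usual members with at least 3 probe sets they were 0.65 and 0.64, close to the other genes; genes are not independent replicates, and all points share the same 4 arrays.

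**Figure D2:**
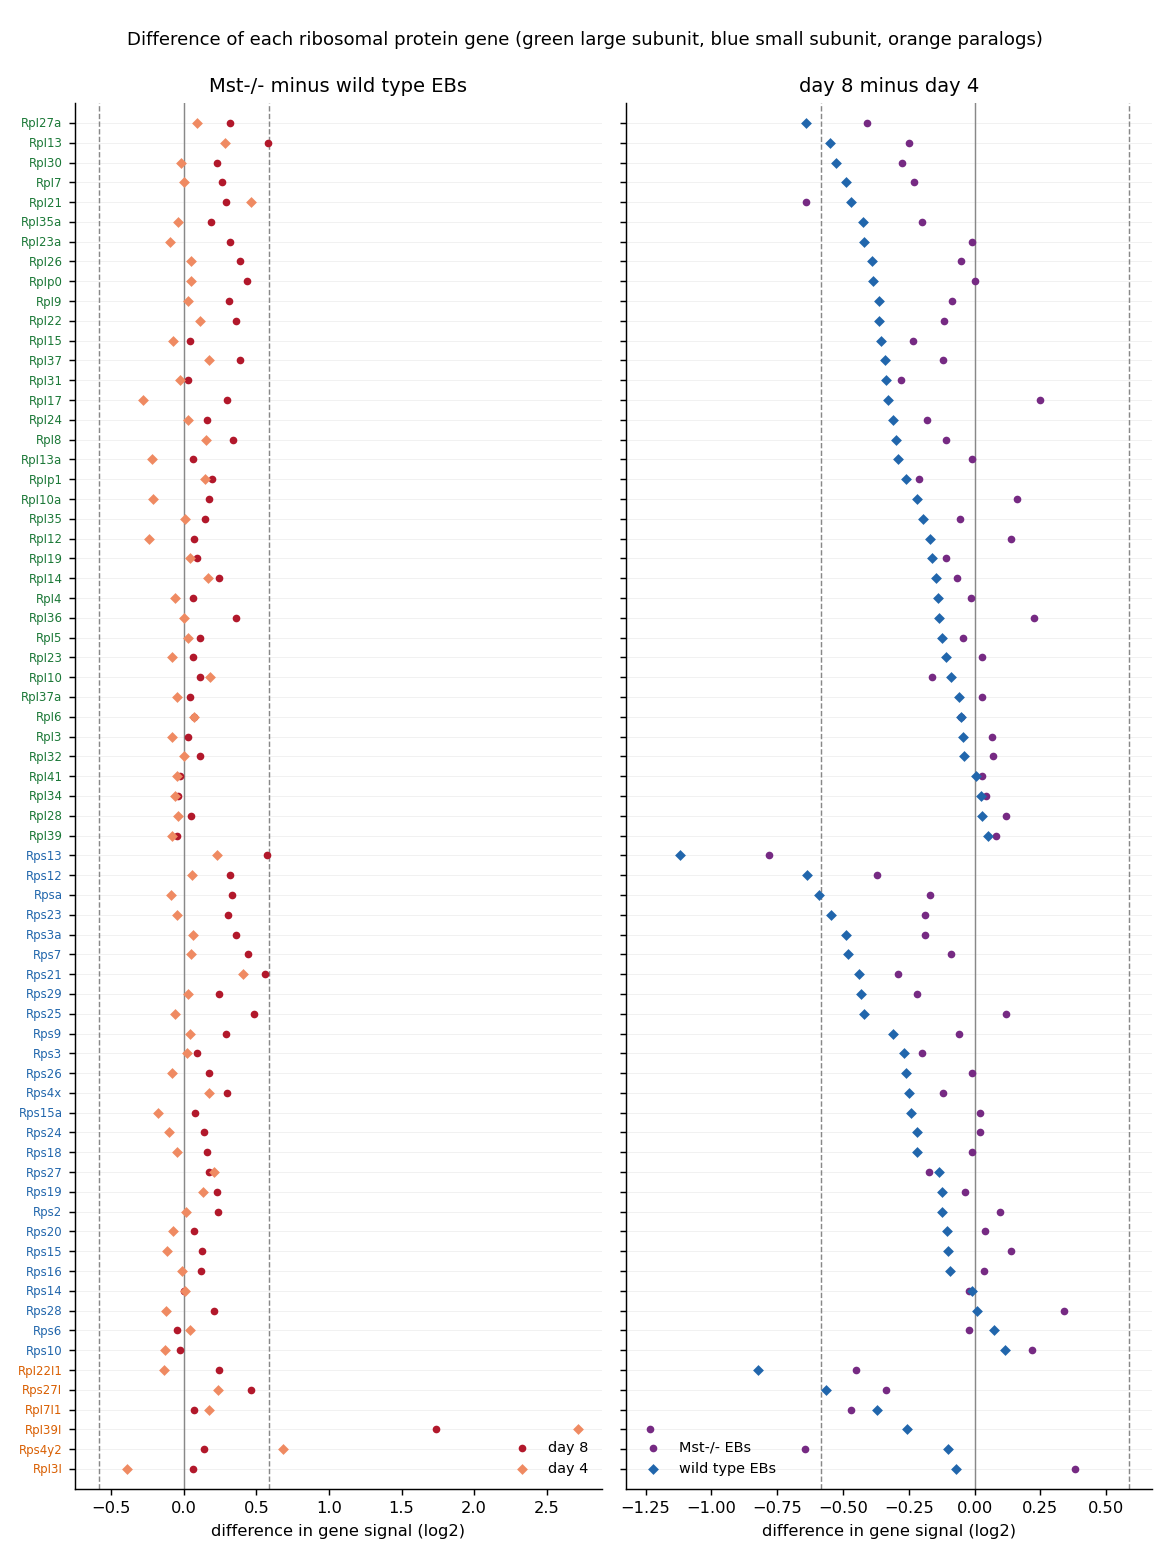
Difference of each of the 69 members in gene signal (log2, horizontal axes), *Mst-/-* minus wild type EBs on the left (day 8 circles, day 4 diamonds) and day 8 minus day 4 on the right (*Mst-/-* circles, wild type diamonds), ordered within each group by the change in wild type EBs, with dashed lines at 1.5-fold. The wild type diamonds on the right lie under 0 for most members and the *Mst-/-* circles closer to 0. The gene median of *Rpl3l* was below background on all arrays, and that of *Rpl39l* on all but the *Mst-/-* day 4 array.

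The size of the shift went with the signal of the probe set. For the probe sets of members with mean signals of 7 to 9, 9 to 11, 11 to 13 and 13 to 15, the median change over time in wild type EBs was -0.70, -0.47, -0.32 and -0.09 (37, 60, 145 and 173 probe sets). Probe sets of other genes in the same ranges had medians of 0.04, -0.04, -0.08 and -0.04. The same order held for *Mst-/-* minus wild type EBs at day 8, which uses the same wild type day 8 array. There the members had medians of 0.53, 0.33, 0.26 and 0.07 and other genes -0.03, 0.05, 0.07 and 0.01. At day 4 the genotype medians were 0.30, 0.065, 0.01 and -0.03 for members and 0.01, 0.00, -0.02 and -0.05 for other genes. Over time in *Mst-/-* EBs they were -0.41, -0.22, -0.11 and 0.02 for members and 0.00, -0.01, -0.01 and 0.02 for other genes. Members and other genes thus lay furthest apart among dim probe sets and close together among the brightest, which hold more of the members' probe sets than any other range. Gene medians were also compared by mean signal (9 to 11, 11 to 13 and 13 to 15). At day 8 the genotype differences had medians of 0.23, 0.26 and 0.07 for members and 0.11, 0.11 and 0.03 for other genes. Over time in wild type EBs they were -0.42, -0.34 and -0.10 for members and -0.08, -0.14 and -0.01 for other genes. Whether the brightest probe sets respond less to the same change in RNA was not tested.

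**Figure D3:**
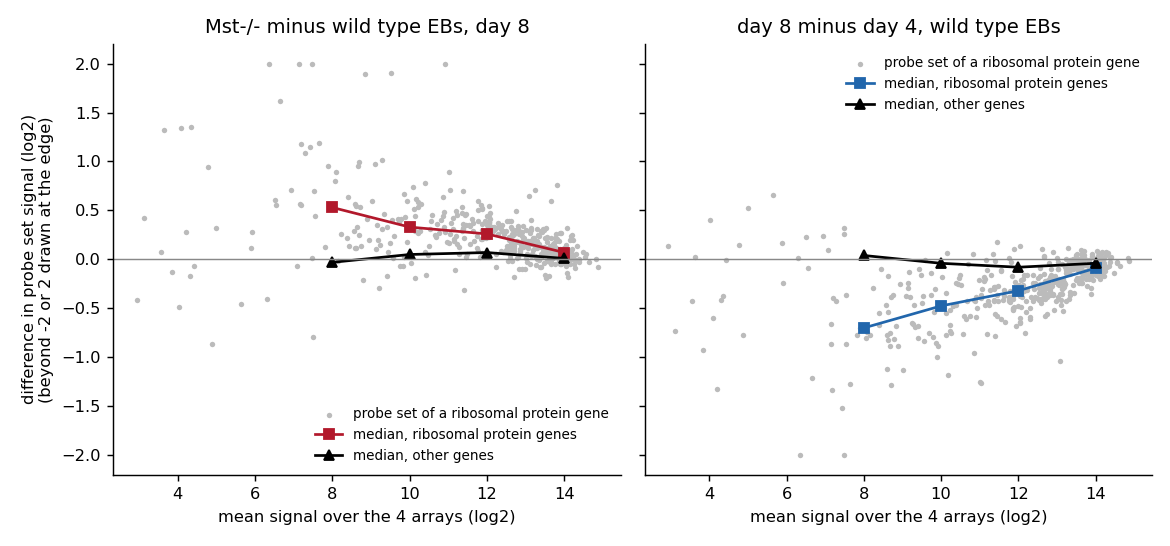
Difference of single probe sets (log2, vertical axes) against their mean signal over the 4 arrays (log2, horizontal axes) for *Mst-/-* minus wild type EBs at day 8 (left) and day 8 minus day 4 in wild type EBs (right). Grey points are the members' probe sets, squares their medians in ranges of 2 log2 units and triangles the medians of other genes; the members' medians are 0.53 in the dimmest and 0.07 in the brightest range on the left, and -0.70 and -0.09 on the right, while those of other genes stay near 0.

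Among the paralogs, *Rpl39l* differed most between the genotypes. Its signal was 6.46 and 4.72 in *Mst-/-* and wild type EBs at day 8, and 7.69 and 4.97 at day 4, so that only the day 4 *Mst-/-* array was above background. The day 4 difference was 2.71 ± 0.74 (6 of 6 probe sets higher, 3 of them below background on both day 4 arrays), and since the wild type array was below background, the gene is given as at least 1.57-fold higher there. Its brightest probe set (5146763) read 10.14 in *Mst-/-* and 8.24 in wild type EBs at day 8, and 10.95 and 8.69 at day 4, so it exceeded the background on every array. The next (5254546) read 9.32 and 7.43, and 10.51 and 8.11. These probe sets put *Mst-/-* EBs above wild type EBs on both days and day 8 below day 4 in both genotypes, whereas the median over probe sets gave no comparison at day 8. In *Mst-/-* EBs the gene was lower at day 8 than at day 4 by 1.24 on the log2 scale (at least 1.71-fold against background).

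*Rpl39*, the usual form, read 13.67, 13.72, 13.59 and 13.67 in *Mst-/-* day 8, wild type day 8, *Mst-/-* day 4 and wild type day 4 EBs, with differences of -0.05 at day 8 and -0.08 at day 4. A single dim probe set of *Rpl39* (5044941) went against the other 6, reading 6.31 and 4.30 at day 8, and 8.12 and 6.66 at day 4, in *Mst-/-* and wild type EBs. *Rpl39l* and the usual gene were therefore not parallel. The pluripotency markers were also higher in *Mst-/-* EBs on both days (5 of 6 past 1.5-fold at day 4, median 1.80), and their part in the difference of *Rpl39l* was not tested.

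*Rpl22l1* had the largest change of a member with several probe sets in wild type EBs, reading 9.11 at day 8 and 9.94 at day 4 (-0.82 ± 0.23, 6 of 6 probe sets lower, 2 of them below background), against 9.35 and 9.80 in *Mst-/-* EBs (-0.45 ± 0.19). Its partner *Rpl22* read 10.87 and 11.23 in wild type EBs (-0.36 ± 0.17), and 11.22 and 11.34 in *Mst-/-* EBs (-0.12 ± 0.23). Both genes thus had lower values at day 8 in both genotypes, further from 0 in wild type EBs. *Rps27l*, which in human is induced by p53, read 12.08 and 11.62 in *Mst-/-* and wild type EBs at day 8 (0.46 ± 0.30), and 12.41 and 12.18 at day 4 (0.23 ± 0.22). *Rps27* read 11.59 and 11.42 at day 8 (0.17 ± 0.30), and 11.76 and 11.55 at day 4 (0.21 ± 0.16).

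The other member past 1.5-fold at day 4 was *Rps4y2*. It read 9.91 and 9.78 in *Mst-/-* and wild type EBs at day 8, and 10.56 and 9.88 at day 4 (0.69 ± 0.23, 4 of 4 probe sets), so the day 4 *Mst-/-* array stood above the other 3. *Rps4x*, the X-linked usual form, read 13.07 and 12.77 at day 8 (0.30 ± 0.50), and 13.19 and 13.02 at day 4 (0.17 ± 0.40). *Rpl7l1* was lower over time by about as much in both genotypes (-0.47 ± 0.20 in *Mst-/-* and -0.37 ± 0.19 in wild type EBs), and *Rpl7* by 0.23 and 0.49. *Rpl10* differed between the genotypes by 0.11 at day 8 and 0.18 at day 4. *Rpl3l*, the form of striated muscle, had a median below background on all arrays (5.67, 5.61, 5.29 and 5.68), although its probe set 5010576 read 7.32 and 7.44 in *Mst-/-* EBs at day 8 and day 4, above background. At day 8 all 3 cardiac markers had medians above background. In comparison, *Rpl3* read 13.83, 13.80, 13.76 and 13.84 in the same order of arrays.

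**Figure D4:**
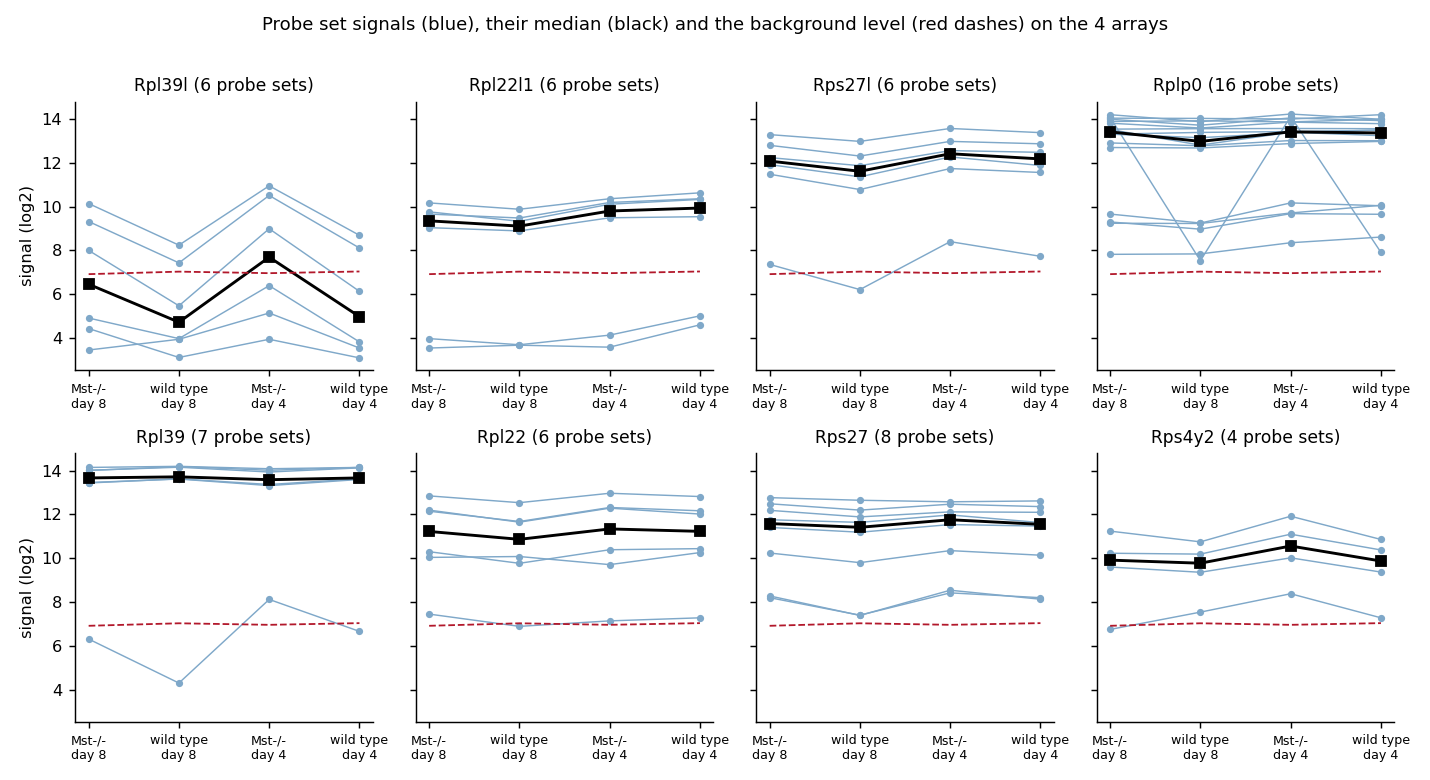
Signals (log2, vertical axes) of every probe set of 8 members on the 4 arrays, from *Mst-/-* day 8 on the left to wild type day 4 on the right. Blue lines are probe sets, black squares their median and red dashes the background. All 6 probe sets of *Rpl39l* are higher in *Mst-/-* EBs at day 4 while 6 of 7 of *Rpl39* are flat, and a single probe set of *Rplp0* drops to 7.53 and 7.91 on the wild type arrays.

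The stalk of the large subunit, which recruits translation factors, was measured through *Rplp0* and *Rplp1*. *Rplp0*, often used as a reference gene in quantitative PCR, read 13.42 and 12.98 in *Mst-/-* and wild type EBs at day 8, and 13.42 and 13.37 at day 4, with an SD of 1.61 over 16 probe sets at day 8. That spread came from a single probe set (4369920), which read 14.08 in *Mst-/-* and 7.53 in wild type EBs at day 8, and 14.12 and 7.91 at day 4. Without it the other 15 probe sets differed by -0.08 to 0.71 at day 8, and the gene difference was 0.16 ± 0.22 at day 8 and -0.09 ± 0.17 at day 4, in place of 0.43 and 0.05. It was the sole probe set of the members that stood more than 4-fold apart from the median of its gene between the genotypes on both days (1 of 420 in genes with 3 or more probe sets, against 147 of 207506 over all genes), and the cause was not tested. *Rplp1* read 13.19 and 12.99 at day 8 (0.20 ± 0.21), and 13.40 and 13.26 at day 4 (0.14 ± 0.23). *Rplp2* had 4 probe sets shared with other symbols, and the median of their differences was 0.21 at day 8 and 0.12 at day 4.

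Members tied to particular functions had values near those of the rest. *Rpl5*, which with *Rpl11* and 5S rRNA binds Mdm2, read 10.96 in *Mst-/-* and 10.85 in wild type EBs at day 8, with differences of 0.11 ± 0.36 at day 8 and 0.03 ± 0.26 at day 4 (4 probe sets). Of 19 genes mutated in Diamond-Blackfan anemia in human, 15 were members. None passed 1.5-fold in any of the 4 comparisons, and their medians were 0.17 and -0.03 between the genotypes at day 8 and day 4, and -0.05 and -0.24 over time in *Mst-/-* and wild type EBs. *Rps19*, the most often mutated of them, read 10.62 and 10.39 at day 8, and 10.66 and 10.52 at day 4, from 2 probe sets. The erythroid markers were over 1.5-fold lower in *Mst-/-* EBs at day 8 in 5 of 5 cases, and a link to these genes was not tested.

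The genes that build ribosomes showed larger differences than the proteins of the ribosome. Of 45 measured ribosome biogenesis genes, 22 passed 1.5-fold upward and 0 downward in *Mst-/-* EBs at day 8 (median 0.56). Of all genes, 8.41% and 8.21% passed in these directions. At day 4, 3 were higher (median 0.21), a lower share than the 10.3% of all genes. Most nevertheless lay on the same side at day 4, with 40 of 45 above 0 and 5 under 0, against 51.3% and 47.7% of all genes. Over time 36 of 45 were lower in wild type EBs (median -0.87) and 23 of 45 in *Mst-/-* EBs (median -0.59), with 0 higher in either. Of all genes, 12.7% were lower and 16.7% higher in wild type EBs, and 7.48% and 13.3% in *Mst-/-* EBs. *Utp14a*, a processome protein, read 9.18 and 7.80 in *Mst-/-* and wild type EBs at day 8, and 10.57 and 9.61 at day 4. *Nhp2*, a protein of H/ACA ribonucleoproteins, read 10.77 and 9.56 at day 8, and 11.47 and 10.84 at day 4. Both were lowest on the wild type day 8 array and highest on the *Mst-/-* day 4 array, and *Ftsj3* and *Nop58* (*Nol5* on the array) were likewise lowest in wild type EBs at day 8, with day 8 genotype differences of 1.06 and 1.03. The members' own probe sets in the ranges of 7 to 9 and 9 to 11 had medians of -0.70 and -0.47 over time in wild type EBs, and the lists were not compared at matched signal.

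RNA polymerase I and its factors followed the biogenesis genes, with 3 of 12 (*Taf1d*, *Polr1d* and *Polr1e*) past 1.5-fold upward in the day 8 *Mst-/-* EBs, and 5 of 12 in *Mst-/-* and 8 of 12 in wild type EBs lower over time, where 8.41%, 7.48% and 12.7% of all genes passed in these directions. Of 75 mitochondrial ribosomal proteins compared, which form a separate ribosome, 9 were higher and 1 lower in *Mst-/-* EBs at day 8 (median 0.29; 8.41% and 8.21% of all genes), and 16 were lower and 1 higher over time in wild type EBs (median -0.37; 12.7% and 16.7% of all genes). A further list held 13 genes, mostly but not all translation factors, whose mRNAs also carry TOP tracts. None of them passed 1.5-fold between the genotypes (medians 0.03 at day 8 and -0.07 at day 4). *Eef1d*, an elongation factor subunit, was the sole one past it over time (-0.94 in *Mst-/-* and -1.29 in wild type EBs). The medians of the 13 genes over time were 0.05 in *Mst-/-* and -0.12 in wild type EBs. In wild type EBs this was nearer to 0 than the median of the ribosomal proteins. *Fau*, which encodes a small subunit protein under another symbol, read 13.75, 13.65, 13.62 and 13.61 in *Mst-/-* day 8, wild type day 8, *Mst-/-* day 4 and wild type day 4 EBs.

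Among 25 genes of Myc and mTOR control, *Mycn* passed 1.5-fold upward in the day 8 *Mst-/-* EBs (9.69, against 9.01 in wild type EBs) and over 1.5-fold lower over time in wild type EBs (-0.93 ± 0.43). *Myc* itself read 10.40, 10.44, 10.81 and 11.07 in the same order of arrays, and *Mycl* (*Mycl1* on the array) was lower over time in both genotypes (-0.97 in *Mst-/-* and -1.61 in wild type EBs). Over time in wild type EBs 4 of the 25 were lower and 4 higher, close to the shares of all genes (12.7% lower and 16.7% higher). The higher ones were *Mxi1* (1.01), *Sesn3* (0.97), *Mxd4* (0.71) and *Mxd1* (0.60). In *Mst-/-* EBs 1 was lower and 1 higher, where 7.48% of all genes were lower and 13.3% higher. The list as a whole had medians of 0.01 and 0.04 between the genotypes at day 8 and day 4, and of -0.13 and -0.11 over time in *Mst-/-* and wild type EBs. Kinases named after *Rps6*, which the rule left out because they are no ribosomal proteins, included *Rps6ka6*, higher by 0.93 in *Mst-/-* EBs at day 8, and *Rps6ka4*, lower by 0.64.

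**Figure D5:**
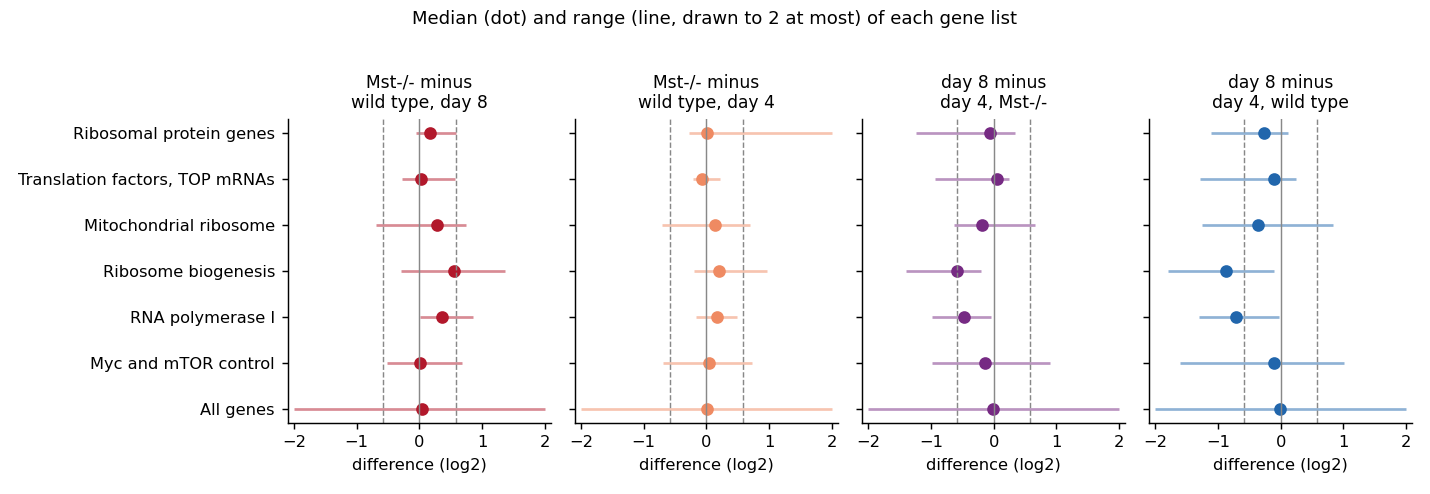
Median (dot) and range (line, drawn to 2 at most) of the differences (log2, horizontal axes) of the ribosomal protein genes, 5 related gene lists and all genes above background in the 4 comparisons, with dashed lines at 1.5-fold. Ribosome biogenesis genes lie furthest from 0 (medians 0.56 for *Mst-/-* minus wild type EBs at day 8 and -0.87 for day 8 minus day 4 in wild type EBs), and the ribosomal protein genes lie on the same side at 0.17 and -0.26.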

How the data were processed

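The deposited table holds log2 signals of 229581 probe sets on 4 arrays; the authors' notes mention the Affymetrix Expression Console (no version), the methods Partek and Genespring, and no source used here states the normalization. Annotation came from the platform, with 209279 probe sets of 1 symbol, 4446 of several and 15856 of none, and only the first were used for genes. Gene signals were medians over probe sets with no further scaling. Differences, the SD over probe sets, and counts past 1.5-fold were computed in Python 3.11.15 with numpy 2.4.6 and pandas 2.3.3, and the scripts were tested on simulated data. Arrays give no read depth, and their number limits the precision.

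The members and lists were chosen with earlier results of these data known. Named members were, in each comparison and direction, up to 8 past 1.5-fold with at least 3 probe sets and 75% of them in that direction, or else the 4 largest such members, together with the paralog pairs and stalk genes. Up to 4 genes with large differences were named per list, and more for Myc and mTOR control. There all 4 genes over 1.5-fold higher over time in wild type EBs were named besides *Mycn* and *Mycl*. *Rps13*, *Rps21*, *Rpl21*, *Rps19*, *Rpl5*, *Fau* and *Myc* were named outside this rule where the text needed them, after their values were seen. Alternatives changed the array scaling, the summary over probe sets, the background, the fold threshold, the symbols and the minimum of probe sets. Promoter windows came from RefSeq GRCm38.p6.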

Additional observations from a re-analysis of the deposited data

How the results depend on the processing

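The median over members kept its sign under each alternative run, at 0.11 to 0.22 for *Mst-/-* minus wild type EBs at day 8, -0.38 to -0.12 for day 8 minus day 4 in wild type EBs and -0.16 to -0.01 in *Mst-/-* EBs, except at day 4, where it lay between -0.01 and 0.03. With each array centered on its median, the wild type change over time had a median of -0.38 and 13 members over 1.5-fold lower in place of 5. Taking only the brightest probe set, these became -0.12 and 2, and 1 member (*Rpl39l*) was over 1.5-fold higher in *Mst-/-* EBs at day 8. That count was also 1 with the mean over probe sets (*Rps27l*), and with probe sets above background only or no background filter (*Rpl39l*). With a background at the 99th percentile, 1 member remained higher at day 4 (*Rps4y2*). At a threshold of 1.2-fold, 23 members were higher in *Mst-/-* EBs at day 8, 5 higher and 1 lower at day 4, 12 lower and 1 higher over time in *Mst-/-* EBs, and 32 lower over time in wild type EBs. At 2-fold, 1 was higher at day 4, and 1 was lower over time in each genotype. With members of at least 3 probe sets, 2 were lower over time in *Mst-/-* EBs. The median over the differences of single probe sets, an alternative chosen after seeing the data, gave 0.18 at day 8 and -0.25 over time in wild type EBs. Of 672 values of 28 named members under the alternatives, 63 moved by more than the spread over probe sets and 0 changed sign after a call. No paired analysis was possible because each group has 1 array. There were no replicates, and a difference of 0.17 may lie within the variation between cultures, which these arrays do not measure.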

Other observations

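A further 150 probe sets carried a ribosomal protein symbol together with other symbols and, apart from the 4 of *Rplp2*, entered no comparison above. Of them, 126 read higher and 20 lower in *Mst-/-* EBs at day 8 (median 0.14), and 75 higher and 71 lower at day 4 (median 0.01). Over time 83 were lower and 65 higher in *Mst-/-* EBs (median -0.03), and 133 lower and 14 higher in wild type EBs (median -0.20). They were read on the same 4 arrays and are no independent check of the members. The 8 ribosomal protein symbols measured by such probe sets alone (*Rpl11*, *Rpl27*, *Rpl29*, *Rpl36a*, *Rpl36al*, *Rpl38*, *Rpl7a* and *Rplp2*) had median probe set differences of 0.09 to 0.21 at day 8. *Rpl36a* and *Rpl36al* were read by the same 9 probe sets, so their values are identical and count once. For *Rpl29* the medians of the signals ran the other way, at 13.37 in *Mst-/-* and 13.42 in wild type EBs.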
